A study of Homo sapiens with 6 samples.

Results

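The core-binding factor and the myeloid transcription factors that act beside it were followed through 5 genes: CBFB, CBFA2T2, SPI1, CEBPA and ELANE. They were chosen by symbol, and each of the 5 had 1 row of its own in a table of 6339 rows. The cells were ME-1, an established human leukaemia line that carries inv(16), so that both arms held the fusion of CBFB with MYH11 throughout. One arm, of 3 libraries, received the solvent DMSO, and the other, also of 3 libraries, received AI-10-49 at 1 µM, in both cases for 6 h. AI-10-49 is an inhibitor that binds the fusion protein and releases RUNX1 from it. A single line was used, and the 3 replicates of each arm were independent experiments per the design text of the series.

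Core-binding factor is a heterodimer in which a RUNX protein contacts DNA and CBFβ, the product of CBFB, strengthens that contact. In inv(16) leukaemia the fusion protein sequesters RUNX1 and holds myeloid maturation back. ETO family proteins, among them the product of CBFA2T2, are corepressors that bring histone deacetylases to DNA, and a relative of theirs is fused to RUNX1 in another leukaemia of the same group. PU.1, encoded by SPI1, and C/EBPα, encoded by CEBPA, are the leading transcription factors of the myeloid lineage. PU.1 at high level favours monocytes, and C/EBPα is required for granulocytes. ELANE encodes neutrophil elastase, a protease of azurophil granules whose promoter is a textbook target of these factors.

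After 6 h with AI-10-49, CEBPA fell 3.03-fold in FPKM, the largest change among the 5 genes. CBFB fell 1.36-fold and ELANE 1.80-fold, while CBFA2T2 rose 1.20-fold. SPI1 did not pass the test with all libraries. FPKM are fragments relative to transcript length and to all mapped fragments of a library, and folds are ratios of mean FPKM. Of the 5 genes 1 rose, 3 fell and 1 did not pass (limma on log2(FPKM + 1), Benjamini-Hochberg adjusted p under 0.05 over 6230 tested rows). Of all tested rows, 95.3% passed, 46.2% as rises and 49.1% as falls. The deposited rows had been selected, and passing the test is the rule among them, so a call says nothing particular about these genes.

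AI-10-49 replicate 2 stood apart from the other libraries. It read lower than AI-10-49 replicates 1 and 3 in each of the 280 rows where both reached 100 FPKM. Its highest value was 159 FPKM, against 1843 and 1877 FPKM in the others, while library medians lay between 14.3 and 14.7 FPKM. The gap depended on abundance and was downward for rows as abundant as SPI1 and CEBPA. Among the 200 rows nearest in FPKM to CBFA2T2 and to ELANE it was upward, with medians of 0.10 and 0.13 in log2(FPKM + 1). Each result is given below with this library and, where it matters, without it. Without it, of the 5 genes 1 rose and 4 fell, while 97.4% of all tested rows passed, 46.4% as rises and 51% as falls. MYC, the gene in the title of the study, stood at a mean of 237 FPKM with DMSO and 25.7 FPKM with AI-10-49.

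**Figure D1:**
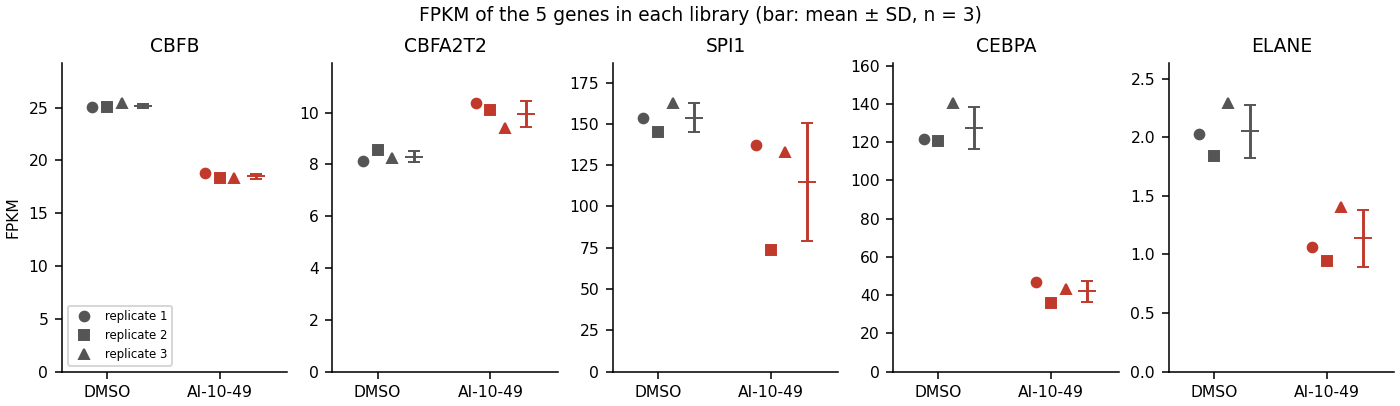
FPKM (vertical axes, each from 0) of the 5 genes in the 3 DMSO libraries (grey) and the 3 AI-10-49 libraries (red), with replicate numbers as symbols and bars for mean ± SD (n = 3). The arms lie apart for each gene, narrowly for SPI1, where AI-10-49 replicate 2 at 73.4 FPKM is far below the other libraries.

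CBFB read 25.1, 25.1 and 25.4 FPKM in the DMSO libraries and 18.8, 18.4 and 18.4 FPKM in the AI-10-49 libraries. Coefficients of variation were 0.768% with DMSO and 1.35% with AI-10-49, the lowest of the 5 genes, and the arms did not overlap. The groups also did not overlap in 96.2% of all tested rows. The log2 fold change was -0.42 ± 0.06 (SE, n = 3 and 3; limma adjusted p = 2.49e-05), with a 95% interval from -0.55 to -0.29. Leaving out AI-10-49 replicate 2 gave -0.42. Of all tested rows 38.6% had a lower log2 fold change, which places CBFB in the middle of this table. Exons of CBFB are shared with the fusion transcript, so a value per gene sums both, and the share of each was not tested. RUNX1, RUNX2, RUNX3 and MYH11 were not analysed here.

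CBFA2T2 read 8.12, 8.55 and 8.23 FPKM with DMSO and 10.4, 10.1 and 9.39 FPKM with AI-10-49. Every AI-10-49 library was above every DMSO library, by a small margin. The mean rose from 8.30 ± 0.22 to 9.94 ± 0.49 FPKM (SD, n = 3), and the log2 fold change was 0.23 ± 0.07 (SE, limma adjusted p = 0.0043). Its 95% interval ran from 0.09 to 0.38, which makes it the smallest change of the 4 that passed. The other ETO family genes, CBFA2T3 and RUNX1T1, were not analysed here.

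CEBPA read 122, 121 and 140.3 FPKM with DMSO and 47.0, 36.1 and 43.2 FPKM with AI-10-49. The highest treated library, at 47.0 FPKM, lay far below the lowest control library, at 121 FPKM. The log2 fold change was -1.58 ± 0.15 (SE, limma adjusted p = 5.69e-07), with a 95% interval from -1.90 to -1.26. Only 94 of 6230 tested rows, or 1.51%, had a lower log2 fold change. Without AI-10-49 replicate 2 it was -1.48 ± 0.08 (SE, limma adjusted p = 2.8e-08), 2.83-fold in FPKM. In DMSO libraries CEBPA ranked above 95.9% of tested rows, and with AI-10-49 above 83.4%. In the GENCODE 29 annotation 2 antisense genes overlap CEBPA, and the sources used here do not say whether counting used strand, so reads from them and from CEBPA cannot be told apart. None overlaps the other 4 genes.

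ELANE was scarce, at 2.03, 1.84 and 2.29 FPKM with DMSO and 1.07, 0.94 and 1.41 FPKM with AI-10-49. The arms did not overlap, and the replicates were the loosest among the 4 genes that passed, with coefficients of variation of 11.1% and 21.2%. The log2 fold change of FPKM + 1 was -0.52 ± 0.11 (SE, limma adjusted p = 0.000818). At such low values the added 1 compresses the change, and with 0.1 in its place the log2 fold change was -0.81. Both arms had a mean above the filter of 1 FPKM, 2.05 and 1.14. Only 8.28% of tested rows had a lower mean with DMSO, and depth is unknown. The SE of ELANE comes from 3 libraries in each arm, with a variance that limma moderates over all tested rows.

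SPI1 was the most abundant of the 5 genes, at 154, 145 and 162 FPKM with DMSO and 137, 73.4 and 133 FPKM with AI-10-49. All 3 AI-10-49 libraries were below the DMSO libraries, and replicate 2 was far below its partners. The log2 fold change was -0.47 ± 0.30 (SE, limma adjusted p = 0.142), with a 95% interval from -1.12 to 0.18, which holds 0 as well as a fall deeper than that of any other of the 5 genes except CEBPA. Without AI-10-49 replicate 2 it was -0.18 ± 0.07 (SE, limma adjusted p = 0.0268), 1.14-fold lower in FPKM. After quantile normalization the sign turned, to 0.081 with all libraries (limma adjusted p = 0.17) and to 0.065 without that replicate (limma adjusted p = 0.127). The median over all tested rows was -0.28 before that step and -0.06 after it. Relative to those medians SPI1 stood at -0.20 before and 0.14 after it, and CEBPA at -1.31 and -1.20. Leaving out AI-10-49 replicate 2, with no quantile step, put SPI1 at 0.031 relative to the median of -0.21. The direction of SPI1 thus depended on the scaling and, relative to the median, on that library. The direction of the other 4 genes depended on neither.

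The low reading of SPI1 in AI-10-49 replicate 2 was that of its abundance class. On the log2(FPKM + 1) scale the library read SPI1 0.87 below the mean of replicates 1 and 3, and the median over the 200 rows nearest to SPI1 in FPKM was -0.89 (interquartile range -1.01 to -0.76). CEBPA read -0.31 against a median of -0.27 in its 200 nearest rows, all of them below 0. CBFB at -0.02 and CBFA2T2 at 0.03 were near the other libraries, with medians of 0.01 and 0.10 in their nearest rows. ELANE read -0.20 against a median of 0.13 in its 200 nearest rows, of which 52 were below 0, so it went against its abundance class.

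**Figure D2:**
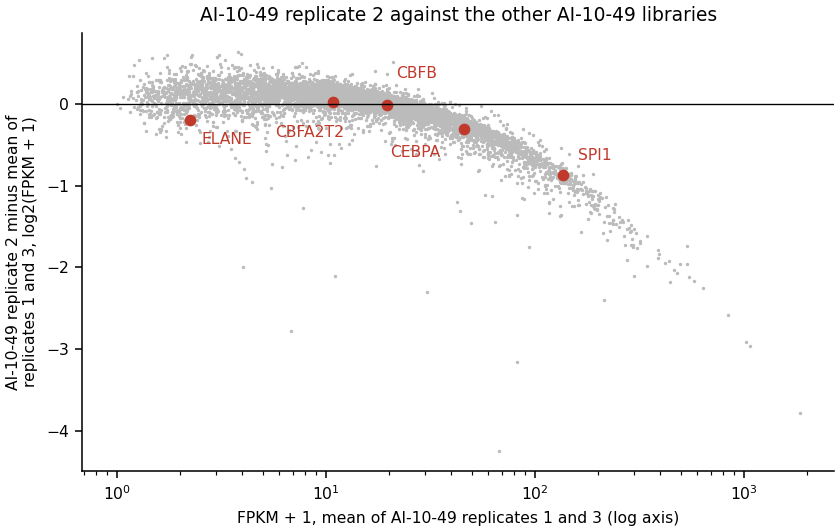
Difference between AI-10-49 replicate 2 and the mean of replicates 1 and 3 in log2(FPKM + 1) (vertical axis) against the mean FPKM + 1 of those 2 libraries (horizontal log axis), 1 grey point per row and the 5 genes in red. The cloud bends downward with abundance, and SPI1 (-0.87) and CEBPA (-0.31) lie on it. CBFB sits where it is near 0, and the rows nearest to CBFA2T2 and ELANE have medians slightly above 0.

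**Figure D3:**
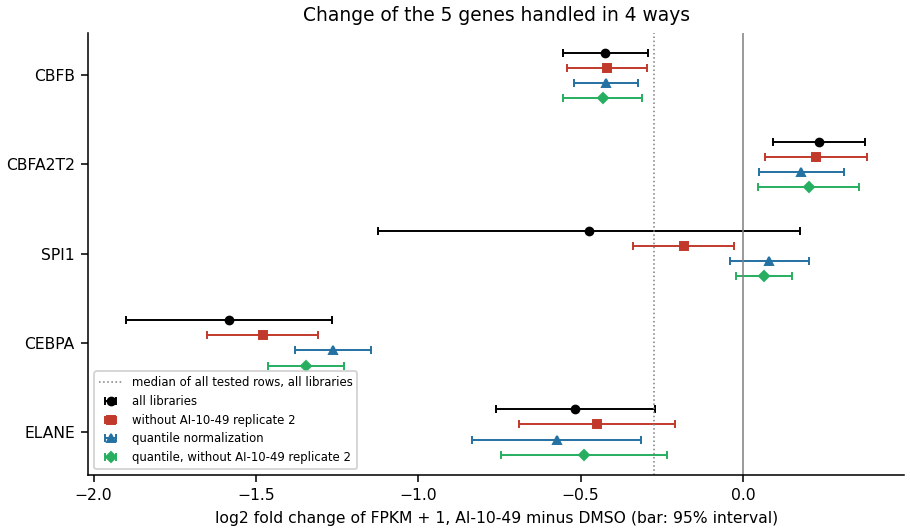
Log2 fold change of FPKM + 1, AI-10-49 minus DMSO (horizontal axis), with 95% intervals, for the 5 genes with all libraries, without AI-10-49 replicate 2, after quantile normalization and after both; the dotted line is the median of all tested rows (-0.28). SPI1 crosses 0 between the 4 versions (-0.47 to 0.081), and CEBPA stays between -1.58 and -1.26.

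Ratios within a library are free of any factor common to all its rows, but not of the abundance-dependent gap of AI-10-49 replicate 2. FPKM are scaled to length, but other differences between genes, such as reads of the antisense genes at CEBPA, can remain in a ratio. SPI1 exceeded CEBPA 1.26-, 1.20- and 1.16-fold in the DMSO libraries. The ratio was 2.92, 2.03 and 3.08 in the AI-10-49 libraries, so the arms did not overlap and the lowest value came from replicate 2. The mean rose from 1.21 ± 0.05 to 2.68 ± 0.56 (SD, n = 3), and log2(FPKM + 1) of SPI1 minus that of CEBPA differed between the arms by 1.11 ± 0.19 (SE). An exact two-sided permutation test gave p = 0.1, the smallest that 3 against 3 libraries can give, and 0.143 after Benjamini-Hochberg adjustment over the 10 pairs of these genes. On that scale the difference was 1.34 after quantile normalization and 1.30 without AI-10-49 replicate 2.

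CBFB and CBFA2T2, which moved in opposite directions, gave the tightest ratio. It was 3.09, 2.93 and 3.08 in the DMSO libraries and 1.82, 1.82 and 1.95 in the AI-10-49 libraries (difference between the arms on the log2(FPKM + 1) scale -0.66 ± 0.04 SE; exact permutation p = 0.1, adjusted 0.143). In 7 of the 10 pairs the arms did not overlap. The 10 ratios reuse the same 5 genes, and the share over pairs of all rows was not computed. Single rows did not overlap in 96.2% of all tested rows, so this count says little about these genes. The arms overlapped for SPI1 to CBFB, SPI1 to ELANE and CBFB to ELANE (exact permutation p = 1, 0.8 and 0.4). For SPI1 to CBFB the mean ratio was 6.10 ± 0.31 with DMSO and 6.18 ± 1.89 (SD, n = 3) with AI-10-49, a wide spread that does not show the ratio to be the same. The order of abundance was SPI1, CEBPA, CBFB, CBFA2T2 and ELANE in each of the 6 libraries. The closest neighbours were SPI1 and CEBPA with DMSO (ratios 1.16 to 1.26) and CBFB and CBFA2T2 with AI-10-49 (1.82 to 1.95), and no pair changed places in any library.

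**Figure D4:**
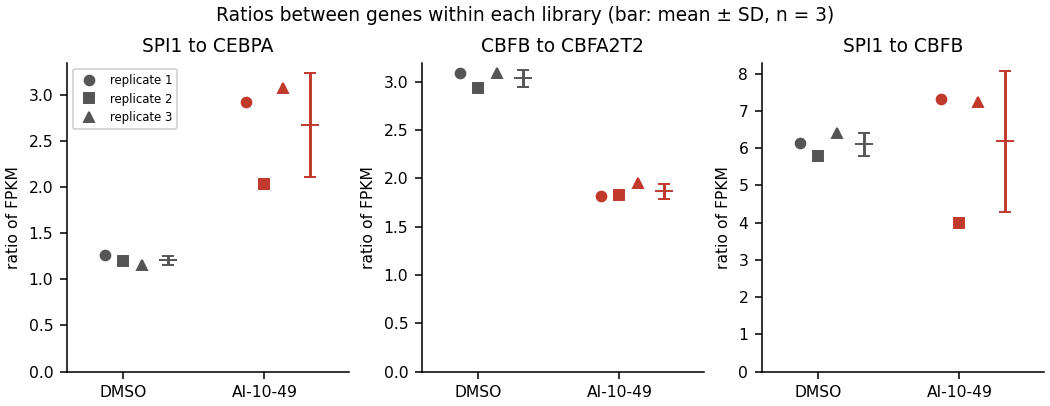
Ratio of FPKM between pairs of genes (vertical axes, from 0) in each DMSO (grey) and AI-10-49 (red) library, with bars for mean ± SD (n = 3). SPI1 to CEBPA is 1.16 to 1.26 with DMSO and 2.03 to 3.08 with AI-10-49, CBFB to CBFA2T2 separates with little spread, and SPI1 to CBFB overlaps.

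Promoter sequences from RefSeq (GRCh38.p14) were at hand for CEBPA and CBFA2T2, shown here because CEBPA had the largest fall and CBFA2T2 was the gene that rose. Each is the 250 bases upstream of the listed start, on the strand of the gene, chr19:33302535-33302784 (minus) for CEBPA and chr20:33562092-33562341 (plus) for CBFA2T2. GENCODE 29 also lists transcripts of CBFA2T2 that begin upstream of this window. Capitals mark matches to the C/EBP motif.
CEBPA: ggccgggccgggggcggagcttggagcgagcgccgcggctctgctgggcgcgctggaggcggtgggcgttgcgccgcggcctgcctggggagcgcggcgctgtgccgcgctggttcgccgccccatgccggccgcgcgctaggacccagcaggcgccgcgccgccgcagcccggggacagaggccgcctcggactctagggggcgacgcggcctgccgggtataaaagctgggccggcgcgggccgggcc
CBFA2T2: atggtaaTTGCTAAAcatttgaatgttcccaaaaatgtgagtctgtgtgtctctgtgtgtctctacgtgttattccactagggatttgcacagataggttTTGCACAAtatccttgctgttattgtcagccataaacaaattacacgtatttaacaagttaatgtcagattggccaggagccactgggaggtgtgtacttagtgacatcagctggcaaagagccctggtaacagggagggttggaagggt
Both strands were searched for the RUNX motifs TGTGGT and TGCGGT, the PU.1 motif GAGGAA and the C/EBP motif TTGCNNAA. N is any base. CEBPA held no match, and CBFA2T2 held 2 to the C/EBP motif, whose leading base lies at -243 and -150 from the start and which do not overlap. Of 35116 such windows, 9.05% held the C/EBP motif, 23.6% the PU.1 motif, and 11% and 5.84% the RUNX motifs. G and C made up 81.2% of the CEBPA window and 42.8% of that of CBFA2T2, against a median of 58% over all windows. A match is a run of letters and was not tested as a binding site. CBFB, SPI1 and ELANE are named only.

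The rows most like each gene were taken by the smallest root mean square difference, over the 6 libraries, of log2(FPKM + 1) minus the DMSO mean, among 5993 rows with a gene symbol of their own. For CBFB they were AP2A1, RABL2B and EXOC3, at 0.016 to 0.018. For CBFA2T2 they were LATS2, FAM120B and ZNF75D, at 0.033 to 0.037. For SPI1 they were TNFRSF1A, ANP32B and COPE, at 0.021 to 0.032, which had DMSO means of 129 to 166 FPKM and the same wide AI-10-49 spread (SD 30.4 to 39.3 FPKM). For CEBPA they were TOMM5, DCTPP1 and TYMS, at 0.046 to 0.054, with log2 fold changes of -1.56, -1.57 and -1.55. For ELANE they were MLX, TEX264 and LRRC34, at 0.041 to 0.045. The pattern holds 1 contrast, so likeness here is mostly an equal size of change. The choice used all 6 libraries, so the AI-10-49 spread that TNFRSF1A, ANP32B and COPE share with SPI1 follows from it.

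Around these 5 genes, 9 gene lists held 127 other genes, of which 62 had a tested row of their own. Of these 25 rose, 34 fell and 3 did not pass, and 27 rose and 35 fell without AI-10-49 replicate 2. The median log2 fold change of all tested rows was -0.28, or -0.21 without that replicate. Of all tested rows 46.2% rose and 49.1% fell, or 46.4% and 51% without it. Each list count stands against these shares. Counts in the following lists include the 5 genes, and members without a row were not analysed here.

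Corepressors of the ETO family and their complexes, 11 of 19 measured, rose in 5 and fell in 6 (median -0.26). The E protein TCF4 changed most, from 12.1 ± 0.23 FPKM with DMSO to 38.2 ± 5.24 FPKM with AI-10-49 (SD, n = 3). Its log2 fold change was 1.57 ± 0.09 (SE). SIN3B, a scaffold of deacetylase complexes, fell by 0.77, the adaptor LDB1 by 0.76 and the deacetylase HDAC1 by 0.64 on the log2 scale. After quantile normalization LDB1 stood at -0.36 and HDAC1 at -0.18, and both still passed. Cofactors and modifiers of RUNX proteins, 7 of 14 measured, rose in 3 and fell in 4 (median -0.39). The acetyltransferase CREBBP rose by 0.99 and the corepressor TLE4 by 0.71 on the log2 scale, whereas the arginine methyltransferase PRMT6 fell by 1.11 and TLE3 by 0.65. Related corepressors thus moved in both directions.

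ETS family genes, to which SPI1 belongs, 11 of 18 measured, rose in 7 and fell in 3, with SPI1 as the one that did not pass. Their median was 0.33, or 0.47 without AI-10-49 replicate 2. ETV3, a repressor, changed by 0.77, ELF1 by 0.76, ELF2 by 0.56 and ELK1, a partner of serum response factor, by -0.57. ELF1 read 72.8 ± 3.35 and 130.5 ± 47.3 FPKM (SD, n = 3), and its call was lost when DMSO replicate 2, DMSO replicate 3 or AI-10-49 replicate 1 was left out (limma adjusted p = 0.0576, 0.0535 and 0.0526). Without AI-10-49 replicate 2 it was 1.11, and after quantile normalization 1.19.

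In the C/EBP family and its regulators, 10 of 12 measured, 5 rose, 4 fell and 1 did not pass (median 0.43), and without AI-10-49 replicate 2 the median was 0.66 with 6 that rose. CEBPB, which encodes a C/EBP protein active in stress and inflammation, rose from 16.1 ± 2.12 FPKM with DMSO to 44.5 ± 9.13 FPKM with AI-10-49 (SD, n = 3), and the log2 fold change was 1.40 ± 0.13 (SE). With AI-10-49 its level and that of CEBPA, at 42.1 ± 5.52 FPKM, lay within their spread. DDIT3, which encodes CHOP, a C/EBP protein of the stress response that blocks DNA binding by its partners, changed by 2.81. TRIB3, a stress-induced pseudokinase gene, changed by 2.61. HHEX, a homeobox gene, stood at 0.35 (limma adjusted p = 0.272) and at 0.72 without AI-10-49 replicate 2 (limma adjusted p = 1.82e-06). Without AI-10-49 replicate 1 or 3 it was 0.17 or 0.15, and after quantile normalization 0.86.

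Regulators of monocyte and granulocyte fate, 7 of 17 measured, rose in 1 and fell in 5, and SPI1 did not pass (median -0.48). JUN, a partner of PU.1 on monocyte genes, was the gene that rose, from 8.01 ± 0.12 FPKM with DMSO to 104 ± 31.1 FPKM with AI-10-49 (SD, n = 3), and its log2 fold change was 3.49 ± 0.17 (SE). GFI1B, a transcriptional repressor that acts in the erythroid and megakaryocytic lineages, fell from 37.3 ± 1.78 FPKM with DMSO to 9.48 ± 0.45 FPKM with AI-10-49 (SD, n = 3). The log2 fold change of GFI1B was -1.87 ± 0.07 (SE). GFI1, a repressor needed by neutrophils, fell by 0.67 on the log2 scale, and by 0.19 after quantile normalization, where it still passed.

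Azurophil granule genes, 8 of 15 measured, fell in 7, ELANE among them, and 1 did not pass. Their median was -0.71, or -0.51 without AI-10-49 replicate 2. CTSC, the protease that activates elastase and its relatives, fell from 146 ± 10.8 FPKM with DMSO to 72.2 ± 13.5 FPKM with AI-10-49 (SD, n = 3), and the log2 fold change was -1.02 ± 0.21 (SE). After quantile normalization CTSC stood at -0.52. RNASE3, whose product is better known from eosinophil granules, fell by 1.16 and the elastase relative PRTN3 by 0.57 on the log2 scale. PRTN3 averaged 1.06 FPKM with DMSO and 0.384 FPKM with AI-10-49, and with a pseudocount of 0.1 its change was -1.29. RNASE3 has a close copy in RNASE2, so its value is uncertain. CD63, a granule membrane protein gene, fell by 0.86, or 0.51 without AI-10-49 replicate 2 and 0.33 after quantile normalization, and lost its call when any single DMSO library was left out (limma adjusted p = 0.0785, 0.0738 and 0.0945). PRSS57, a granule protease gene, stood at -0.86 (limma adjusted p = 0.113) and at -0.51 without AI-10-49 replicate 2 (limma adjusted p = 0.000417), where all 8 fell. After quantile normalization PRSS57 stood at -0.086 (limma adjusted p = 0.356). With AI-10-49 replicate 2 also left out it stood at -0.20 (limma adjusted p = 0.00236). The -0.86 with all libraries passed when limma was run without the trend (limma adjusted p = 0.021), so the call of PRSS57 depended on the processing. MPO and CTSG were not analysed here.

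Genes of congenital neutropenia and granule sorting, 8 of 14 measured, rose in 4 and fell in 3 with 1 that did not pass (median 0.25). G6PC3, of glucose-6-phosphate handling, fell by 0.55 and AP3B1, an adaptor subunit that sorts elastase, rose by 0.38 on the log2 scale. HAX1, a mitochondrial protein gene, stood at 0.44 (limma adjusted p = 0.0724) and at 0.72 without AI-10-49 replicate 2 (limma adjusted p = 4.38e-06), and at 0.86 after quantile normalization (limma adjusted p = 4.03e-07).

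Myeloid genes known as targets of PU.1 and C/EBP, 8 of 23 measured, fell in 7 (median -0.75, or -0.64 without AI-10-49 replicate 2). CSF2RB, the shared receptor chain for GM-CSF, IL-3 and IL-5, fell from 23.8 ± 0.86 FPKM with DMSO to 10.1 ± 0.42 FPKM with AI-10-49 (SD, n = 3), and the log2 fold change was -1.16 ± 0.06 (SE). The surface antigen CD33 fell by 0.97, the oxidase subunit gene CYBA by 0.87 and the integrin gene ITGB2 by 0.77 on the log2 scale. After quantile normalization CYBA stood at -0.43 and ITGB2 at -0.44, and both still passed. CSF1R, CSF3R and ITGAM were not analysed here.

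**Figure D5:**
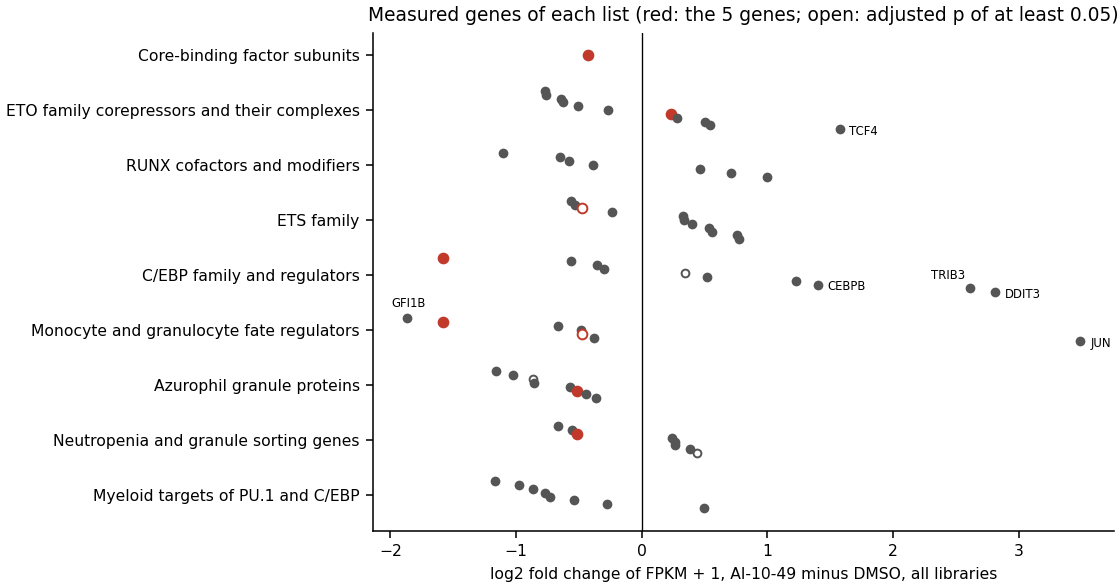
Log2 fold change of FPKM + 1, AI-10-49 minus DMSO (horizontal axis), of each measured gene in the 9 lists (rows), with the 5 genes in red, other genes in grey and open symbols where the adjusted p was at least 0.05. Azurophil granule genes and PU.1 and C/EBP targets lie mostly left of 0 (7 of 8 fell in each, and 49.1% of all tested rows fell). CEBPA (-1.58) lies opposite CEBPB, TRIB3 and DDIT3 (1.40 to 2.81).

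The myeloid blast markers CD33, KIT, PTPRC and FLT3, 4 of 8 on their list, were present in all libraries, with a summed level of 150.0 to 158 FPKM with DMSO and 113 to 152 FPKM with AI-10-49. Of these, CD33 and KIT fell (log2 fold change -0.97 and -1.04) and PTPRC and FLT3 rose (0.61 and 0.29). PTPRC stood at 0.93 after quantile normalization. Lymphoid markers, 3 of 7 measured, summed to 35.2 to 37.0 FPKM with DMSO and 17.6 to 18.0 FPKM with AI-10-49, and erythroid and megakaryocyte markers, 2 of 7, to 16.0 to 19.1 and 7.77 to 10.1 FPKM. None of these measured markers was at 0 in any library. All 5 of the lymphoid, erythroid and megakaryocyte ones fell, and so did 49.1% of all tested rows. Most of the lymphoid sum was CD3D, at a mean of 32.2 FPKM with DMSO. CD79A and CD3E averaged 2.42 and 1.36 FPKM there. The part of these markers in the results above was not tested. Markers of epithelium and fibroblasts were not analysed here. In these bulk RNA samples, fewer cells of a type and less RNA per cell cannot be told apart.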

How the data were processed

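RNA of ME-1 cells was sequenced in 6 libraries, 3 with DMSO and 3 with AI-10-49. The authors used the build hg19 with Bowtie2 2.1.0 and, for expression, Cufflinks 2.2.0 and Cuffdiff, per the submitters' processing notes. They deposited FPKM, 1 column for each library, in 6339 rows, and 198 rows name several genes. How the rows were selected is not stated in the sources used here, so counts of rows describe the table only. Depth is unknown: of 97 rows under 0.6 FPKM in all DMSO libraries, 29.9% gave a ratio of DMSO replicates 1 and 2 within 0.5% of a ratio of whole numbers up to 12, and reads were not recovered.

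FPKM were tested as log2(FPKM + 1) with limma 3.58.1 in R 4.3.3 (two-sided, with a mean-variance trend) as AI-10-49 minus DMSO over 6230 rows, those whose mean reached 1 FPKM in either arm, with Benjamini-Hochberg adjustment and a threshold of 0.05. Standard errors and p-values of the limma fits use variances moderated over the tested rows. Standard errors of ratios between genes use the spread of the libraries alone. The limma procedure was tested on simulated data. Exact permutation tests, motif searches and plots used Python 3.11.15, SciPy 1.17.1 and Matplotlib 3.10.9. Named genes were the 5 genes, up to 4 of largest change in each of 9 gene lists and 4 marker lists, list genes that did not pass, 3 rows most like each of the 5, and MYC. Genes and lists were chosen with earlier results of these data known. A gene on these lists is not reported here by name. Older symbols were matched through a gene name table.

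The alternatives changed the pseudocount (0.1 or 0.5), the filter (none, or 5 FPKM), the scaling (medians or quantiles), the variance model (no trend) or the design (a block for the replicate number). Others left out each library, joined quantile normalization with the removal of AI-10-49 replicate 2, or asked for an absolute log2 fold change of at least 1.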

Additional observations from a re-analysis of the deposited data

How the results depend on the processing

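CBFB, CBFA2T2, CEBPA and ELANE kept their direction and call under every alternative fit that gave a value for the gene. The filter at 5 FPKM left ELANE out. Only CEBPA, at -1.58, reached an absolute log2 fold change of 1, so that minimum takes out the calls of CBFB, CBFA2T2 and ELANE. Leaving out single libraries gave log2 fold changes from -0.43 to -0.42 for CBFB, 0.21 to 0.27 for CBFA2T2, -1.66 to -1.48 for CEBPA, -0.61 to -0.45 for ELANE and -0.63 to -0.18 for SPI1, which passed only without AI-10-49 replicate 2. Under quantile normalization SPI1 turned to 0.081, and the rows most like it, TNFRSF1A, ANP32B and COPE, to 0.084, 0.053 and 0.14. With AI-10-49 replicate 2 also left out they stood at 0.065, 0.046, 0.092 and 0.079. None of these passed, and the cause was not tested. TNFRSF1A, ANP32B and COPE were chosen for a pattern like that of SPI1, so their turn is no independent observation. The difference between arms in log2(FPKM + 1) of SPI1 minus CEBPA was 1.00 to 1.30 without single libraries. Of 820 values for 55 other named genes, 796 kept direction and call, 7 lost the call, 11 gained it and 6 reversed. That tally leaves out the minimum log2 fold change of 1, under which every named gene with a smaller change loses its call. Rows past the threshold ranged from 5018 of 5284 tested (filter at 5 FPKM) to 6067 of 6228 (without AI-10-49 replicate 2). With a minimum log2 fold change of 1, which takes out small changes by construction, 836 of 6230 rows passed. The filter at 5 FPKM left 1 lymphoid marker tested and called. With the replicate number as a block 6015 rows passed. Deviations of same-numbered libraries correlated at -0.15, 0.147 and 0.247 across rows, and not every library correlated best with its own number, so the numbers were not treated as pairs. Depth is unknown, which limits what low values such as ELANE can show.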
